A study of Mus musculus with 4 samples.

Results

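The genes of antigen processing and of the major histocompatibility complex (MHC) were examined in crypts of the mouse intestine. They were taken as every gene whose symbol starts with H2-, the name of the mouse MHC, together with 20 named genes of antigen processing, and 42 genes had a probe set that named them alone, of 18193 such genes on the array. Of several probe sets for a gene, the one with the highest mean log2 signal was used. A filter on dim signal kept 34 of the 42 genes, and Psme2 had no probe set of its own. The tissue was intestinal crypts cut out by laser capture microdissection and profiled on 4 single-colour arrays, 2 of control mice and 2 of mutants lacking beta-catenin, 2 days after the deletion had been induced with tamoxifen. The mRNA of both groups went through 2 rounds of amplification. The allele, the Cre driver, the mouse strain and age, and whether the controls also received tamoxifen or came from separate mice, are not named in the labels. If the arrays of a group were not from separate mice, the p-values cover no more than the variation among these captures, and that may be technical.

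MHC class I molecules sit on most cells and show peptides cut from the cell's own proteins to CD8 T cells. The peptides are made by the proteasome, whose catalytic subunits can be exchanged for those of the immunoproteasome, then carried into the endoplasmic reticulum by the TAP transporter and loaded there onto a heavy chain paired with beta-2-microglobulin. MHC class II molecules show peptides from endosomes to CD4 T cells. They are made mainly by dendritic cells, macrophages and B cells, but epithelium of the small intestine makes them too, and interferon-gamma induces both pathways through the transactivators Nlrc5 for class I and Ciita for class II.

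Values are given as log2(signal + 5) after quantile normalization, a scale that understates the change of dim probe sets, and in bulk samples such as these fewer cells of a type and less RNA per cell cannot be told apart. With 4 arrays, precision is limited by their number. The probe sets of the deleted gene Ctnnb1 checked its label only in part, since the deleted exons are not given. Its brightest probe set had log2 signals of 12.43 and 12.56 in the controls against 12.02 and 11.85 in the mutants (difference -0.56, SE 0.22, limma adjusted p = 0.785), whereas a dimmer probe set differed by 0.38 (SE 0.50). All 9 listed epithelial genes, among them Epcam and Vil1, passed the filter in these captures. The array of mutant replicate 1 also carried pancreatic enzyme transcripts, with a summed signal of 60670 over 9 genes against 1118 to 1503 in the other arrays. Arrays with the replicate number 1 had higher 5' to 3' ratios of the beta-actin control, at 0.149 and 0.0945 against 0.0567 and 0.0448 for number 2, a sign of RNA length.

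Most class II pathway genes that passed the filter and several of the class I pathway had higher signals in both mutant arrays than in both control arrays, while the class I heavy chains themselves did not separate. Of the 34 genes, 24 were higher and 10 lower in the mutants, with a median difference of 0.47 on the log2 scale, beside 49.8% higher and a median of 0.00 over all 22519 probe sets tested. Both mutant values lay above both control values for 12 of the 34 genes (35.3%), a pattern shown by 17.3% of all probe sets tested. Both lay below for 5 genes (14.7%), against 18.9% of all probe sets. Of the 34 genes, 0 passed limma with Benjamini-Hochberg adjustment over all probe sets (smallest adjusted p = 0.768), and of the 22519 probe sets 0 passed (0% called). At an unadjusted limma p under 0.05, 7 genes were higher (Tap1, Cd74, H2-Ab1, H2-Aa, H2-DMb2, Nlrc5 and Tapbp) and 0 lower, beside 2.74% and 3.54% of all probe sets. Separation and a 2-fold difference came together for 4 genes above (Tap1, Cd74, H2-Aa and H2-DMb2), beside 2.26% of all probe sets, and for 1 below (Pdia3), beside 2.63%. H2-DMb2, part of each of these counts, passed the filter only through its mutant values. Its control mean was 4.22, under the cut of 4.79, so its place in the counts is no independent support. An exact permutation test of 2 arrays against 2 cannot go below a two-sided p of 0.333. With mutant replicate 1 left out, 23 of the 34 genes were higher and 19 lay above both controls, beside 34.1% of all probe sets, and the median difference was 0.45. The median rested more on control replicate 2: without it the median was 0.18, 21 genes were higher and 17 lay above, beside 36.5% of all probe sets. Over all 42 genes, with no filter, 30 were higher, 13 lay above both controls and 7 below, beside 16.7% and 17.6% of all probe sets, and the median difference was 0.40.

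**Figure D1:**
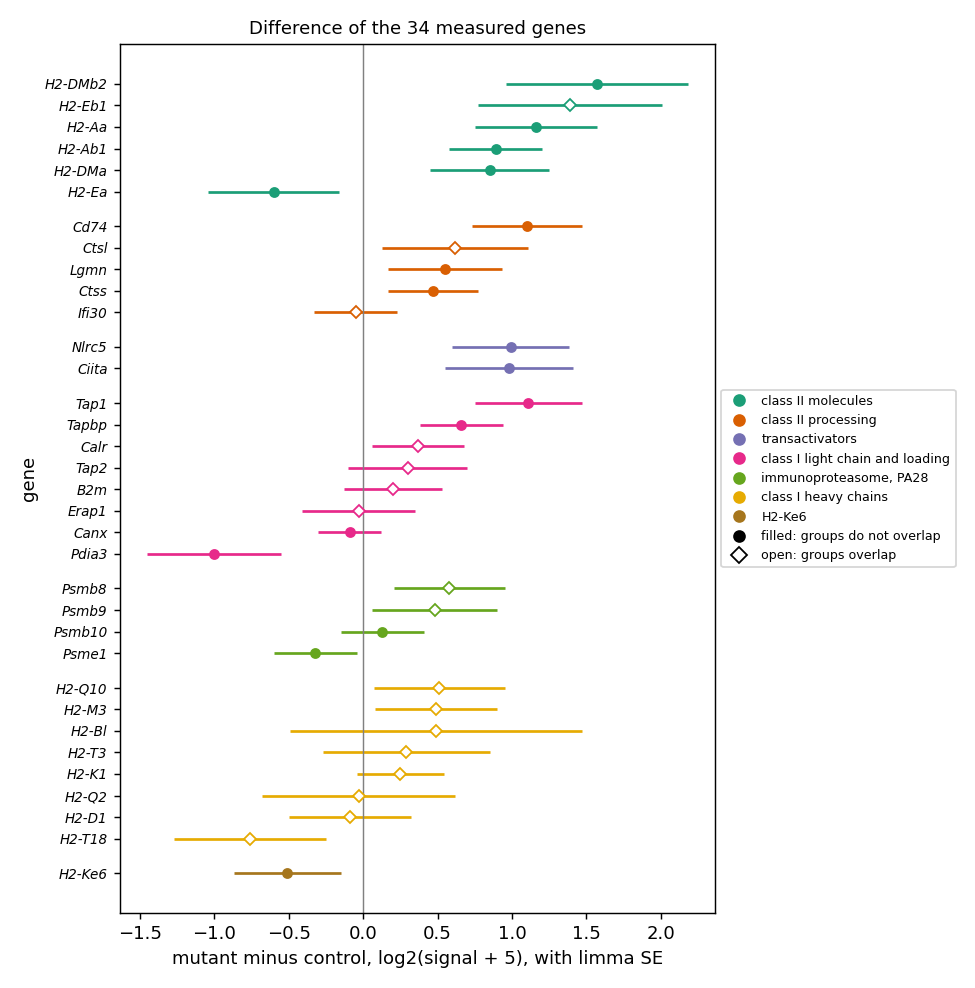
Mutant minus control difference of each of the 34 genes on the log2(signal + 5) scale (x axis), grouped by role, with bars for the limma SE (n = 2 arrays per group). Filled circles mark genes whose groups did not overlap and open diamonds those whose groups did; H2-DMb2, H2-Eb1, H2-Aa, Tap1 and Cd74 have differences above 1, and Pdia3 and H2-T18 lie furthest to the left.

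The class II molecules had the highest median difference of the roles with more than 2 genes, at 1.02 over 6 genes kept by the filter, and 0.61 without control replicate 2. This median was 0.85 with no filter and 0.74 with the mean of all kept probe sets of a gene. Both mutants lay above both controls for 4 of the 6 and below for 1, beside 17.3% and 18.9% of all probe sets. H2-Ab1 encodes the beta chain of the I-A molecule, a class II molecule of the mouse. Its log2 signals were 9.04 and 8.84 in the controls against 9.74 and 9.92 in the mutants, so that the groups did not overlap and each held its values within a narrow range (difference 0.89, SE 0.31, 1.85-fold; limma adjusted p = 0.768). The alpha chain gene H2-Aa had 10.92 and 9.62 in the controls against 11.31 and 11.55 in the mutants (difference 1.16, SE 0.41, 2.23-fold; limma adjusted p = 0.768). Here control replicate 2 was the low array and control replicate 1 stood near the mutants: leaving out control replicate 1 gave 1.80, and leaving out control replicate 2 gave 0.51. The deposited intensities of this H2-Aa probe set, before any scaling here, were 1747 and 769 in the controls against 3276 and 2761 in the mutants.

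The beta chain of I-E, H2-Eb1, had 9.24 and 7.25 in the controls against 9.17 and 10.09 in the mutants. The groups overlapped, since control replicate 1 lay just above mutant replicate 1, and the difference of 1.39 (SE 0.62) became 0.39 without control replicate 2 and 2.39 without control replicate 1. The partner alpha chain gene H2-Ea, which several inbred strains do not express, was dim throughout, at 5.30 and 6.03 in the controls against 5.18 and 4.94 in the mutants, a difference of -0.60 (SE 0.44) with both mutants below both controls; its other kept probe set differed by -1.28 (SE 0.68). Over the 14 kept probe sets of the 6 class II molecule genes, 10 were higher in the mutants and 4 lower, with both mutant values above both control values for 6 (17.3% of all probe sets) and below for 1 (18.9%). The other H2-Aa probe sets differed by 1.87 (SE 0.55), 0.97 (SE 0.72) and 0.20 (SE 0.49), and the other H2-Ab1 probe sets by 0.78 (SE 0.41) and 0.52 (SE 0.59).

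H2-DM is the class II relative that exchanges the placeholder peptide for an antigenic one. H2-DMa had 6.75 and 7.63 in the controls against 8.02 and 8.07 in the mutants, with no overlap (difference 0.85, SE 0.40), and the difference was 0.41 without control replicate 1. H2-DMb2 had 5.08 and 3.35 in the controls against 5.60 and 5.98 in the mutants (difference 1.57, SE 0.61). It is a dim probe set, its deposited intensity in control replicate 2 was 4.08, and the difference was 0.71 without that array. For both genes another kept probe set pointed the other way, at -0.05 (SE 0.48) for H2-DMa and -0.08 (SE 0.51) for H2-DMb2. The class II genes H2-Oa, H2-Ob and H2-Eb2 did not pass the filter, with no array above 5.34 and differences of 0.45, 0.14 and -1.58.

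Cd74 encodes the invariant chain, which fills the groove of new class II molecules and guides them to endosomes. Its log2 signals were 8.51 and 9.38 in the controls against 10.09 and 9.99 in the mutants, and its deposited intensities were 348 and 652 against 1420 and 857. Both mutant arrays lay above both controls (difference 1.1, SE 0.37, 2.14-fold; limma adjusted p = 0.768), and leaving out control replicate 1 gave 0.67, and leaving out control replicate 2 gave 1.53. The low control differed between genes: it was control replicate 1 for Cd74 and H2-DMa, and control replicate 2 for H2-Aa, H2-Ab1, H2-Eb1 and H2-DMb2.

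The proteases that trim the invariant chain and endosomal proteins differed by less. Ctss, the cathepsin that makes the last cut in the invariant chain in professional antigen-presenting cells, had 11.25 and 10.60 in the controls against 11.35 and 11.44 in the mutants (difference 0.47, SE 0.30). The asparaginyl endopeptidase gene Lgmn had 6.0 and 5.53 against 6.20 and 6.42 (difference 0.55, SE 0.38). For both genes the groups did not overlap, but the gap from control replicate 1 to the nearer mutant was small, and without control replicate 2 the differences were 0.15 and 0.31. Ctsl, the cathepsin with the corresponding role in thymic epithelium, overlapped, with mutant replicate 1 the high array at 9.27 (difference 0.62, SE 0.49). Ifi30, the thiol reductase that opens disulfide bonds of endosomal antigens and is known to be induced by interferon-gamma, differed by -0.05 (SE 0.28), with values between 10.30 and 10.58 in the 4 arrays, and the sign turned to 0.12 in the unscaled values and to 0.24 after median centring.

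**Figure D2:**
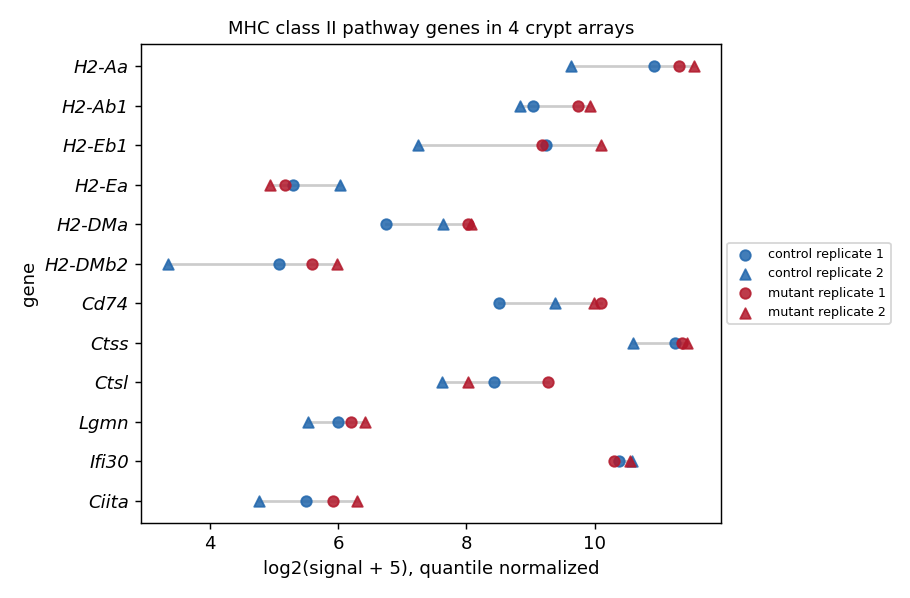
Log2(signal + 5) of 12 class II pathway genes (x axis; genes on the y axis) in each of the 4 arrays (points; blue control, red mutant; circles replicate 1, triangles replicate 2), with a grey line over the range. For H2-Ab1, Cd74 and Ciita the red points lie to the right of the blue ones, while H2-Eb1 overlaps and H2-Ea runs the other way.

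Both transactivators were higher in both mutant arrays. Nlrc5, the transactivator of class I genes, had 5.30 and 5.64 in the controls against 6.24 and 6.68 in the mutants (difference 0.99, SE 0.39; limma adjusted p = 0.785). Ciita, the transactivator of class II genes, had 5.50 and 4.77 in the controls against 5.92 and 6.30 in the mutants (difference 0.98, SE 0.43; limma adjusted p = 0.789). Both probe sets were dim, with deposited intensities between 18.8 and 82.4. The differences of Ciita's other probe sets, which the filter removed, were 1.31 and 1.01. Without control replicate 2 the difference of the Ciita probe set used was 0.61. Among the factors that hold the transactivators on the promoter, Rfx5 was higher in both mutants, at 7.77 and 8.25 against 8.47 and 8.78 (difference 0.61, SE 0.36; 0.37 without control replicate 1). Of the 7 listed factors of that complex, 2 (Rfx5 and Rfxap) had both mutants above both controls and 1 (Creb1, -0.54, SE 0.34) below, beside 17.3% and 18.9% of all probe sets, with a median of -0.15.

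Of 8 genes of peptide loading, including the class I light chain, 2 had both mutants above both controls (Tap1 and Tapbp) and 2 below (Pdia3 and Canx), beside 17.3% and 18.9% of all probe sets. The other kept Canx probe sets pointed the other way, at 0.08 (SE 0.38) and 0.44 (SE 0.36). For the latter both mutants lay above both controls. Tap1, which encodes a subunit of the peptide transporter, had 7.74 and 7.48 in the controls against 8.47 and 8.96 in the mutants (difference 1.11, SE 0.36, 2.15-fold; limma adjusted p = 0.768). Its deposited intensities were 209 and 176 in the controls against 447 and 402 in the mutants, and the difference ran from 0.86 to 1.35 over the fits that left out 1 array. Its other probe sets, which the filter removed, differed by 0.34, -0.31 and -0.29. Tapbp encodes tapasin, the protein that bridges the transporter to class I molecules and edits their peptides. It had 11.67 and 11.25 in the controls against 11.87 and 12.37 in the mutants (difference 0.66, SE 0.28, 1.58-fold; limma adjusted p = 0.785). For Tap1 the mutants stood clear of both controls, whereas for Tapbp mutant replicate 1 was close to control replicate 1, and the difference was 0.41 without mutant replicate 2.

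Tap2, the second transporter subunit, had 6.52 and 7.29 in the controls against 7.01 and 7.40 in the mutants, with overlap (difference 0.30, SE 0.40). B2m, which encodes beta-2-microglobulin, had 12.88 and 11.90 in the controls against 12.81 and 12.36 in the mutants, where the array numbered 1 was the higher in each group (difference 0.20, SE 0.33). The aminopeptidase gene Erap1, which trims peptides to length, differed by -0.03 (SE 0.38; 0.11 after median centring). The chaperone genes Calr and Canx differed by 0.37 (SE 0.31) and -0.09 (SE 0.21), and the sign of Canx turned to 0.16 in the unscaled values and to 0.28 after median centring. Pdia3, the thiol oxidoreductase of the loading complex, was lower in both mutants, at 8.72 and 7.58 in the controls against 6.93 and 7.37 in the mutants (difference -1.0, SE 0.45; limma adjusted p = 0.789), and its other probe set differed by -0.43 (SE 0.49). Without control replicate 1, its high array, Pdia3 stood at -0.43.

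Of the 4 genes of the immunoproteasome and its activator, 1 had both mutants above both controls (Psmb10) and 1 had both below (Psme1). These counts stand beside 17.3% and 18.9% of all probe sets. Psmb8 and Psmb9 overlapped. Psmb8, which takes the place of Psmb5, had 9.72 and 10.17 in the controls against 10.10 and 10.94 in the mutants (difference 0.58, SE 0.37). Psmb9, which takes the place of Psmb6, had 9.67 and 10.87 against 10.50 and 10.99 (difference 0.48, SE 0.42), with control replicate 1 the low array: the sign turned to -0.12 without it. Psmb10, which takes the place of Psmb7, had 10.22 and 10.09 against 10.28 and 10.29 (difference 0.13, SE 0.28), a separation far smaller than its SE. The activator subunit gene Psme1 lay lower in both mutants, at 10.63 and 10.65 against 10.19 and 10.45 (difference -0.32, SE 0.28). The standard subunits, named here after their values were seen, differed by -0.17 (SE 0.29; 0.01 unscaled and 0.13 after median centring) for Psmb5, 0.17 (SE 0.30) for Psmb6 and -0.44 (SE 0.34) for Psmb7. The difference between the immunoproteasome and standard subunits was not tested.

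Of the class I heavy chain genes, 8 of 13 passed the filter, and 0 had groups that did not overlap. Among all probe sets, 17.3% had both mutants above both controls and 18.9% had both below. The classical gene H2-K1 had 11.98 and 11.71 in the controls against 12.44 and 11.76 in the mutants (difference 0.25, SE 0.29), with mutant replicate 1 the high array. The classical gene H2-D1 had 10.94 and 10.40 in the controls against 11.14 and 10.02 in the mutants (difference -0.09, SE 0.41), and of its 8 kept probe sets 4 were lower. The sign of H2-D1 turned to 0.06 in the unscaled values and to 0.18 after median centring. H2-Q2 split by replicate number, at 11.72 and 9.49 in the controls against 11.05 and 10.10 in the mutants (difference -0.03, SE 0.65; 0.15 unscaled and 0.27 after median centring). H2-Bl had 12.18 and 8.32 in the controls against 10.92 and 10.56 in the mutants, so that both mutants lay between the controls.

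The non-classical genes were as mixed. H2-T3, the thymus leukemia antigen that intestinal epithelium is known to express, had 10.01 and 8.69 in the controls against 8.94 and 10.36 in the mutants (difference 0.29, SE 0.56). The differences were 0.49 (SE 0.41) for H2-M3, which presents formylated peptides, 0.51 (SE 0.44) for H2-Q10, which encodes a secreted form, and -0.76 (SE 0.51) for H2-T18, whose low array was mutant replicate 1 at 6.22. Heavy chain genes are near copies of each other and vary between strains, and 3 of the 8 used probe sets of the _x_at kind, which can bind other transcripts. A further 17 probe sets that name an H2- gene or a listed gene together with other genes were left out. The 5 heavy chain genes below the filter (H2-D4, H2-M9, H2-M10.1, H2-Q5 and H2-T24) reached at most 4.82. H2-Ke6, which starts with H2- because it lies within the complex but encodes a steroid dehydrogenase, had 8.10 and 8.0 in the controls against 7.31 and 7.77 in the mutants (difference -0.51, SE 0.36).

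**Figure D3:**
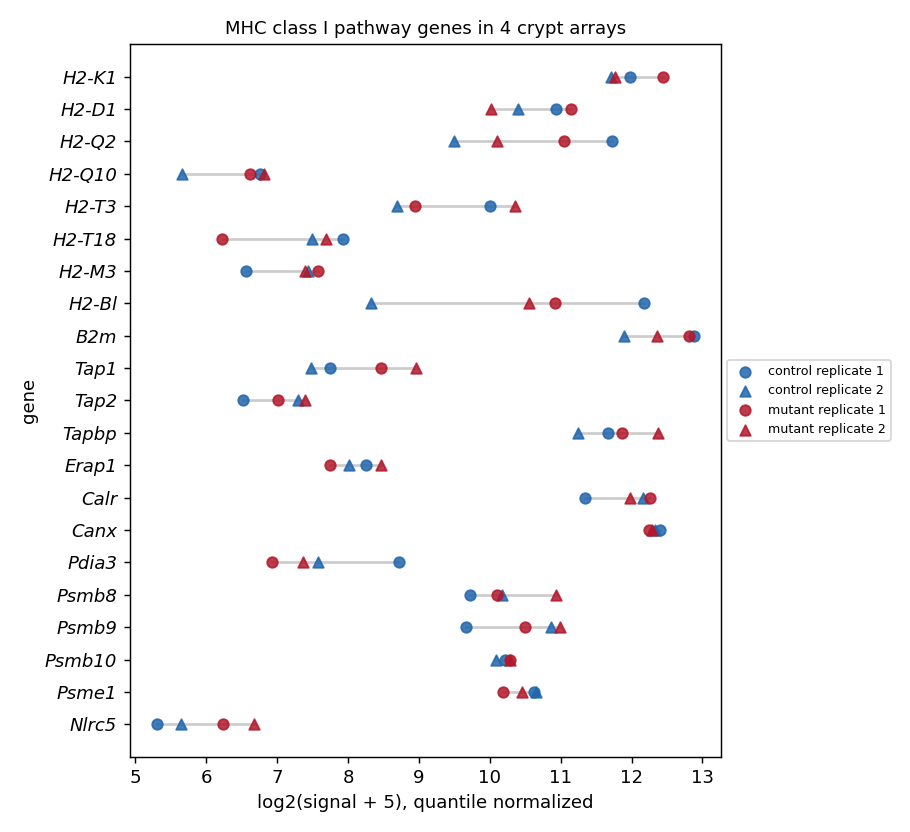
Log2(signal + 5) of 21 class I pathway genes (x axis; genes on the y axis) in each of the 4 arrays (points; blue control, red mutant; circles replicate 1, triangles replicate 2), with a grey line over the range. Tap1 and Nlrc5 have both red points to the right of both blue ones, Pdia3 has them to the left, and the heavy chain genes at the top overlap.

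The genes lie close together in the genome. In RefSeq (GRCm38.p6), 28 of the 42 genes are on chromosome 17, and Psmb9, Tap1, Psmb8 and Tap2 are next to each other there. Tap1 and Psmb9 are read in opposite directions from a shared promoter, and their promoter windows, 250 bases before to 50 after the start, have 275 bases in common. From that shared stretch Tap1 differed by 1.11 (SE 0.36) and Psmb9 by 0.48 (SE 0.42) here. Windows of 31 of the 42 genes were used, and Cd74 was not among these genes. They were searched on both strands for the core of the interferon-stimulated response element (GAAANNGAA), the core of the gamma-activated site (TTCNNNGAA), a core of the X1 box (AGCAACNGA), which RFX binds, and the core of the Y box (GATTGG), which NF-Y binds. None of these letter patterns contains another. The Y box core was in the windows of 16 of the 31 genes, against 16.1% of all 32851 windows of this length. Tap1 and Psmb9 are both counted for the same Y box site in their shared stretch. The X1 box core was in 2 of 31, against 1.34%. The response element core was in 4 of 31 windows, against 8.56%, and the gamma-activated site core in 3 of 31, against 8.3%. Where a gene had several windows, the first was counted. A match is a description of the letters and not a bound site.

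Shown here are the promoters of the loading gene that separated most clearly, of 2 class II chains, of Ctss and of the class I light chain, 5' to 3' on the strand of the gene, with capitals for the matches. The windows are at chr17:34187306-34187605, plus strand, for Tap1, chr17:34287774-34288073, minus strand, for H2-Aa, chr17:34305617-34305916, plus strand, for H2-Eb1, chr3:95526536-95526835, plus strand, for Ctss and chr2:122147437-122147736, plus strand, for B2m, all in GRCm38.p6 from RefSeq. In Tap1 the capitals mark the Y box core on the opposite strand, and in H2-Aa the Y box core from -49 to -44. In H2-Eb1 they mark the X1 box core from -92 to -84 and Y box cores from -60 to -55 and, on the opposite strand, from -35 to -30. In Ctss they mark the response element core from -21 to -13, and in B2m the response element core from -139 to -131 and the Y box core from -54 to -49. Positions are counted from the start, with -1 the last base before it.
Tap1: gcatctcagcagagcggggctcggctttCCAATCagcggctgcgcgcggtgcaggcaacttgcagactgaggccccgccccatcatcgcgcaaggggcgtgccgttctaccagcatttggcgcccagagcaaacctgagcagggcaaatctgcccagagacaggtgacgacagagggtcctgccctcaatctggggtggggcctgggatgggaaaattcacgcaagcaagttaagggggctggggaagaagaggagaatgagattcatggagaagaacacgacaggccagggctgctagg
H2-Aa: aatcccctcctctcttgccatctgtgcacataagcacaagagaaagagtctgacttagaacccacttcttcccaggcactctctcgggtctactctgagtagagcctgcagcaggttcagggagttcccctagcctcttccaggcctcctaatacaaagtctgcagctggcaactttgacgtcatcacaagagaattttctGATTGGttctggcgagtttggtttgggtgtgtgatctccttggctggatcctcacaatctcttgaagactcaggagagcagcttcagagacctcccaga
H2-Eb1: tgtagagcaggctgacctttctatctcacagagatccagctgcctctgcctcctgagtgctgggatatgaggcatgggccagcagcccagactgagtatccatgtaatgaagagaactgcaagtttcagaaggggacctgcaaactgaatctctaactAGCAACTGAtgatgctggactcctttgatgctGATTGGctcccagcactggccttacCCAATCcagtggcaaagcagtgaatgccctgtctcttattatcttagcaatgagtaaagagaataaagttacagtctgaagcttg
Ctss: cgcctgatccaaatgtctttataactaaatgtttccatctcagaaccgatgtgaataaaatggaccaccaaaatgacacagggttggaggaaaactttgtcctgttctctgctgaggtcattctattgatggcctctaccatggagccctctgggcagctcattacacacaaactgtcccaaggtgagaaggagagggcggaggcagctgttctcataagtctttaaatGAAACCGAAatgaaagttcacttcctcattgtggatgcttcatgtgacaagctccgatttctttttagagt
B2m: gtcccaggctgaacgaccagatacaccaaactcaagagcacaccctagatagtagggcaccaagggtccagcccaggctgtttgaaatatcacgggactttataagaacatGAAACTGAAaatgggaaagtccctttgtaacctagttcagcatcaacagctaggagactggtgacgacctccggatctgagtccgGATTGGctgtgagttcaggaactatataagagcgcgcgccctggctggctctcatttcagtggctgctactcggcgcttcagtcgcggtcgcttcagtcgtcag
A response element core before the start did not go with 1 pattern of values. Ctss had both mutants above both controls, while B2m overlapped, as did Erap1, whose core from -9 to -1 is not shown.

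Genes of the pathways that control these promoters were taken from lists written beside the members. The share of all probe sets with both mutants above both controls was 17.3%, and with both below 18.9%. Each count here and in the next paragraph stands beside those. Of 10 genes of interferon-gamma signalling with a probe set 8 passed the filter; of these, 3 had both mutants above and 0 below, with a median of 0.50. The transcription factor gene Irf1, which drives class I and Nlrc5 genes, had 10.41 and 10.61 in the controls against 10.80 and 11.41 in the mutants (difference 0.60, SE 0.31). Irf2 differed by 0.76 (SE 0.41) and the feedback inhibitor gene Socs3 by 1.71 (SE 0.48), from 6.52 and 7.93 to 9.05 and 8.83 (limma adjusted p = 0.768). With 1 array left out, Irf1 was lowest at 0.29 (without mutant replicate 2), Irf2 at 0.37 and Socs3 at 1.01 (both without control replicate 1). The receptor genes Ifngr1 and Ifngr2 overlapped. Ifng itself did not pass the filter, at 3.53 and 2.82 in the controls against 4.36 and 4.37 in the mutants. Of 7 genes of type I interferon signalling, 1 had both mutants above both controls, namely Irf7 (0.99, SE 0.40; 0.56 without control replicate 2), and the median was 0.28.

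Genes known to be induced by interferon-gamma gave 3 of 8 past the filter, of 10 with a probe set, with both mutants above, 1 below and a median of 0.46. The guanosine triphosphatase gene Igtp had 8.44 and 7.69 in the controls against 9.10 and 9.77 in the mutants (difference 1.37, SE 0.41), and Ifi47 differed by 0.81 (SE 0.35). Gbp2, also counted as above, had 5.76 and 5.87 in the controls against 6.77 and 5.88 in the mutants. Its deposited intensities overlapped, at 58.3 and 49.9 against 126 and 43.1. The inhibitory ligand gene Cd274 lay below in both mutants (-0.38, SE 0.43), and the chemokine genes Cxcl9 and Cxcl10 did not pass the filter. Of 11 other genes of class I assembly 2 had both mutants above and 0 below (median 0.09), among them Uggt1, which returns unfinished class I molecules to their chaperones (0.57, SE 0.39; 0.21 without control replicate 1). Of 10 other endolysosomal genes 1 did, the cathepsin gene Ctsz (0.45, SE 0.31; 0.25 without mutant replicate 2), and 0 lay below (median 0.13). Of 7 genes of the standard proteasome and its regulators 0 had both mutants above and 2 below (Psmb7 and Pomp, median -0.17). Of 4 class I-like genes elsewhere in the genome, Procr lay above (0.77, SE 0.38; 0.46 without mutant replicate 2) and Hfe below (-0.61, SE 0.36). In these lists 0 genes passed limma after adjustment over all probe sets.

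Cells other than epithelium could carry class II transcripts into the captures, and markers of such cells were read in the same arrays. Among all probe sets, 17.3% had both mutants above both controls and 18.9% both below, and each such count in this paragraph stands beside those. Of 8 general leukocyte genes 1 (Laptm5) had both mutants above both controls and 0 below. In the mutants 5 of these 8 genes were higher and 3 lower, with a median of 0.21. Their summed signal was 1861 and 1601 in the controls against 2254 and 1837 in the mutants. Of 10 macrophage genes the summed signal was 1361 and 1299 in the controls against 1368 and 2067 in the mutants. Much of it came from Csf1r, with log2 signals of 9.43 and 9.23 against 9.50 and 10.31. Of the 9 kept genes 3 were higher and 6 lower in the mutants, with a median of -0.02. Both mutants lay above both controls for 1 (Csf1r, 0.57, SE 0.36) and below for 0. Of 7 dendritic cell genes 6 were below the filter, including Flt3, Zbtb46, Xcr1 and Ccr7, and the summed signal was 137 and 107 against 131 and 107. Of 7 B and plasma cell genes, with Ms4a1 and Cd79a below the filter, the summed signal was 9720 and 7501 against 7563 and 7658. Most of it came from the plasma cell gene Jchain, with log2 signals of 13.17 and 12.77 against 12.79 and 12.83. Of the 5 kept genes 1 was higher and 4 lower in the mutants, with a median of -0.16. Both mutants lay above both controls for 0 and below for 1 (Mzb1, -0.41, SE 0.35).

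The summed signal of 11 T cell and intraepithelial lymphocyte genes was higher in the arrays numbered 1, at 2174 and 684 in the controls against 3268 and 797 in the mutants. Much of it came from the granzyme gene Gzma, with log2 signals of 10.57 and 8.59 against 11.25 and 8.73, while Thy1 was lower in the arrays numbered 1. Of the 7 kept genes 6 were higher in the mutants, with a median of 0.40. Both mutants lay above both controls for 2 (Cd3e, 1.30, SE 0.61, and Thy1, 0.70, SE 0.41) and below for 0, beside 17.3% and 18.9% of all probe sets. Cd3e passed the filter only through its mutant values. Its control mean was 4.22, under the cut of 4.79, so its place in the T cell counts is no independent support. The summed signal of 6 stromal genes was 1640 and 2929 against 2209 and 2841, with 5 of the 6 higher in the mutants and a median of 0.25. Of these, 2 had both mutants above both controls and 0 below, beside 17.3% and 18.9% of all probe sets. The 2 were Pdgfra (1.53, SE 0.60, limma adjusted p = 0.785) and Col1a1 (0.44, SE 0.37). The marker genes with differences given here were named after their values were seen. Over 8 villus enterocyte genes the summed signal was 48026 and 32449 against 52268 and 38047, again higher in the arrays numbered 1. Over the 4 crypt base stem cell genes it was 6260 and 5841 against 2155 and 2637. All 4 genes were lower in both mutants, a pattern shown by 18.9% of all probe sets. The part of these cell types, of the replicate number and of the pancreatic transcripts in the values of the antigen presentation genes was not tested. Control replicate 2 was the lowest of the 4 arrays for 17 of the 34 antigen presentation genes, against 21.5% of all probe sets tested. Control replicate 1 was the lowest for 8 (29.1% of all probe sets), mutant replicate 1 for 7 (25.1%) and mutant replicate 2 for 2 (24.3%).

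**Figure D4:**
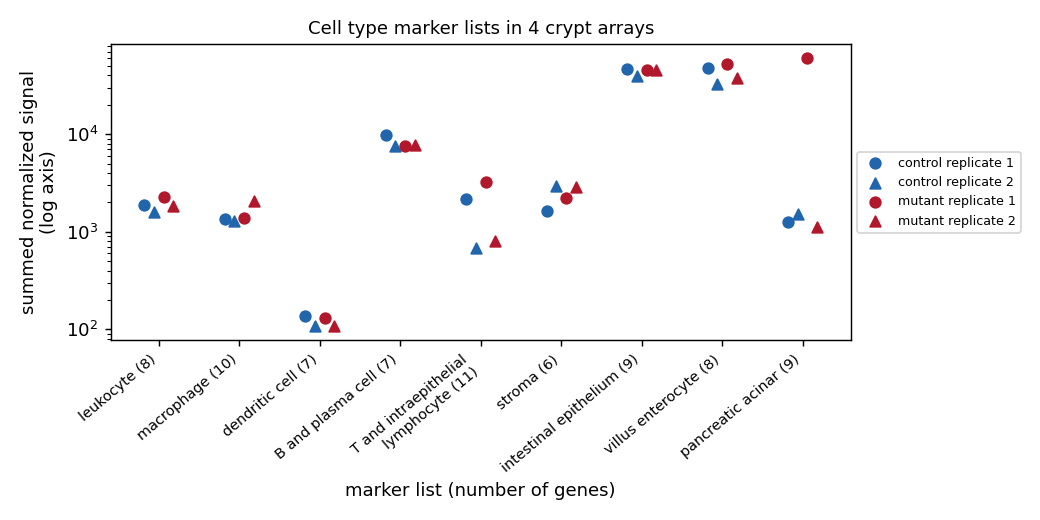
Summed normalized signal (y axis, log scale) of 9 marker lists (x axis, number of genes in brackets) in each of the 4 arrays (blue control, red mutant; circles replicate 1, triangles replicate 2). The summed T cell list is higher in both arrays numbered 1, and the pancreatic list is high in mutant replicate 1 alone.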

How the data were processed

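Probe set intensities on a linear scale were deposited by the authors, which the submitters' processing notes name as MAS5 output; its version and scaling target are unstated there. The method subtracts mismatch signal, so dim probe sets are noisy, and amplification shortens transcripts from the 5' end. Of 45037 probe sets (64 control probe sets left out), 34945 had 1 gene symbol, 932 several and 9160 none. Values were transformed as log2(intensity + 5), 5 being the rounded 20th percentile, and quantile normalized because trimmed means differed 1.53-fold. Probe sets with a mean of at least 4.79, the 50th percentile, were kept (22519). Groups were tested in limma (version 3.58.1, in R 4.3.3; intensity trend, no covariate, two-sided, Benjamini-Hochberg over all kept probe sets, threshold 0.05), with 2 residual and 6.4 prior degrees of freedom. Each SE is that fit's. The fit was tested on simulated data. Members and gene lists were chosen with earlier results of these data known. Any member could be named, with array values for those of smallest p and for set anchors; of other lists, genes whose groups did not overlap. Alternatives covered scaling, pseudocount, filter, variance model, replicate block, probe set choice and leaving out each array.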

Additional observations from a re-analysis of the deposited data

How the results depend on the processing

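Under every alternative run, 0 members passed the adjusted test. Over all probe sets the 0 calls became 2 with the values as deposited, 102 with median centring (81 higher, 21 lower), and ranged from 0 to 85 with an array left out. Among members, 28 of 34 were higher without scaling and 29 after median centring, against 24. Genes with both mutants above both controls numbered 17 to 20, and below 6 to 9, with an array left out, where overlap is less likely by construction; the mean of all kept probe sets of a gene gave 3 below. The median difference of the class II molecules was 0.61 to 1.40 with an array left out, and that of the transactivators 0.65 with a pseudocount of 32. A block for the replicate number gave 1 call over all probe sets and 0 members; the labels do not say that the number pairs arrays, and deviations of same-numbered arrays correlated at 0.0339 across probe sets. Signs turned for genes with small differences when the scaling or the probe set rule changed. With an array left out they also turned for larger differences, such as H2-Q10 (0.51), H2-Bl (0.49) and Psmb9 (0.48). Under no scaling and under median centring the genes were Ifi30 (0.12 and 0.24), H2-D1 (0.06 and 0.18), H2-Q2 (0.15 and 0.27) and Canx (0.16 and 0.28), with median centring also Erap1 (0.11), and Psmb5 (0.01 and 0.13). With the mean of all kept probe sets they were H2-D1 (0.08) and Canx (0.14). With an array left out the range was -0.29 to 0.69 for B2m, -0.04 to 0.78 for Calr, 0.00 to 1.25 for Ctsl, -0.39 to 0.33 for Erap1, -1.44 to 2.42 for H2-Bl, -0.65 to 0.47 for H2-D1, -0.09 to 0.60 for H2-K1, -0.04 to 1.06 for H2-Q10, -1.14 to 1.08 for H2-Q2, -0.42 to 1.01 for H2-T3, -0.18 to 0.07 for Ifi30, -0.35 to 0.02 for Psmb5, -0.12 to 0.45 for Psmb6, -0.12 to 1.08 for Psmb9 and -0.08 to 0.69 for Tap2. The cause was not tested. Dim probe sets such as H2-DMb2, Ciita and Nlrc5 are limited by signal over background.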
